A study of Mus musculus with 6 samples.

Results

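The genes described here encode the trafficking and gating machinery of the primary cilium: subunits and partners of the BBSome, the intraflagellar transport (IFT) complexes and the ciliary transition zone. Members were taken by symbol from a list of 42 genes, and all 42 were found among the 23366 genes of the count table. Libraries came from cultured cerebellar granule neurons of C57BL/6 mice at postnatal day 7, from a Percoll gradient of papain-digested cerebella of a litter, and all cultures were infected with lentivirus on day 1 in vitro. Control cultures (n = 3) received the empty pLKO.1 vector. Knockdown cultures (n = 3) received pLKO.1 with a short hairpin RNA against Kdm6b, a histone H3 demethylase gene. One hairpin sequence is given, and the vector control carries no hairpin. The single comparison asks what differs in these neurons when Kdm6b is lowered.

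The primary cilium is a single antenna of microtubules and membrane that grows from a centriole. Trains of IFT-B and IFT-A complexes carry cargo along it, driven outward by kinesin-2 motors and inward by dynein-2, while the BBSome moves membrane receptors out of it. The transition zone at its base acts as a gate. Granule neuron precursors need this organelle to respond to Sonic hedgehog, their main mitogen.

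Gene counts per library ranged from 50326298 to 88214069, and each cilium gene had at least 196 counts in each library. Kdm6b was at 257, 146 and 170 CPM (gene counts scaled to a common library size with TMM factors) in control replicates 1 to 3 and at 88.8, 63.3 and 79.8 CPM in knockdown replicates 1 to 3, so the groups did not overlap. Its log2 fold change was −1.31 without the replicate block described next (SE 0.25, edgeR adjusted p = 0.216) and −1.28 with it (SE 0.11, edgeR adjusted p = 0.0282). Granule neuron markers were abundant. Zic1 averaged 985 ± 138 CPM in the control libraries and 1148 ± 193 CPM in the knockdown libraries (SD, n = 3). Rbfox3 averaged 523 ± 165 and 496 ± 122 CPM (SD, n = 3). Other markers of these neurons differed more. Of 14, 7 had a log2 fold change above 0 without the block and 7 below, from −1.40 (Etv1) to 1.57 (Barhl1). The cultures also held other cells. In the control libraries pericyte and fibroblast markers summed to 13692 to 27204 CPM, and granule neuron markers to 4939 to 7195 CPM. Libraries that share a replicate number shifted in the same direction around their group means. Fits without and with the replicate number as a block are both given. The labels do not say whether replicates were separate cultures. P-values therefore measure only the spread between these samples.

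The primary edgeR fit, without the block, called 0 of the 42 cilium genes. In the fit with the replicate block 7 rose in the knockdown: Bbs1, Bbs2, Arl6, Ift57, Ift122, Wdr35 and Ahi1. Their adjusted p ran from 0.0282 to 0.0486 (edgeR quasi-likelihood test). None fell. Here and below, rose and fell mean called in the blocked fit. In simulated data that fit made 23 false calls, a larger share of its calls than the threshold allows. The 7 make up 16.7% of the genes, beside 2.58% of all 15731 genes tested that were called higher and 5.4% that were called lower in that fit. Unadjusted p with the block was under 0.05 for 15 of the 42 with a higher level and for 3 with a lower level, beside 15.8% of all genes higher and 18.2% lower. DESeq2 with the block called 11 of the 42 higher and 1 lower, beside 8.1% and 15.6% of the 14511 genes to which it gave an adjusted p. Its 5 further calls were Bbs4, Bbs9, Tctn2 and Arl3, all higher, and Tulp3, lower. Without the block edgeR called 0 of the 42, at adjusted p from 0.152 to 0.997, and limma-voom also called 0, while DESeq2 called 3 higher, Bbs1, Ift57 and Ift122, and 0 lower, beside 1.2% and 2.63% of the 14801 genes to which it gave an adjusted p. That edgeR fit called 1 gene in all, or 0.00636% of those tested. At an unadjusted p under 0.05 it gave 8 cilium genes higher and 0 lower, beside 4.75% of all genes higher and 5.8% lower. The calls with the block rest on 3 pairs: without replicate 1 and without replicate 2 edgeR called 0 of the 42, and without replicate 3 it called 3, Bbs1, Ift57 and Ift122.

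The differences were small and mostly upward. The median log2 fold change over the 42 genes was 0.17, and that over all genes tested was 0.02. Of the 42, 32 had a log2 fold change above 0 without the block, beside 8263 of all 15731 genes tested, and 10 were below. The 42 values ranged from −0.47 (Tulp3) to 0.89 (Bbs1). Knockdown levels lay wholly above the controls for 13 genes (31.0%, beside 9.21% of all genes) and wholly below for 2 genes, Ift52 and Ift20 (4.76%, beside 7.44% of all genes). All 3 pairs were higher in the knockdown for 24 genes (57.1%, beside 31.7% of all genes), and all 3 were lower for 6 (14.3%, beside 28.5%). Summed over the 42 genes, levels were 890, 838 and 886 CPM in the control libraries and 1043, 974 and 1010 CPM in the knockdown libraries. No knockdown sum reached down to a control sum. Since the members were listed with earlier results of these data known, these shares describe the list and are no test of it.

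**Figure D1:**
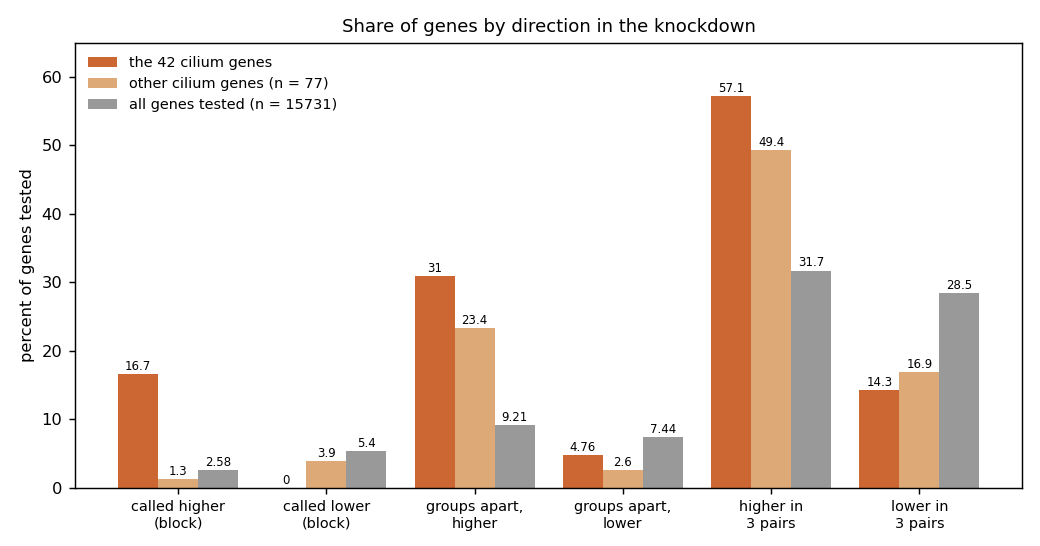
Percent of genes tested (vertical axis, from 0) that were called with the replicate block, had groups that did not overlap or had the same sign in all 3 pairs, split by direction in the knockdown, for the 42 cilium genes, 77 other cilium genes and all 15731 genes tested. Of the 42 genes 16.7% were called higher with the block, beside 2.58% of all genes. Without the block edgeR called 0 of the 42.

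Many ciliary genes are regulated by RFX transcription factors, which bind the X-box, an inverted repeat. RefSeq promoter windows (build GRCm38.p6, 250 bases before to 50 after a start site) were found for 38 of the 42 genes, in 41 windows. The genes Ift80, Ift81, Ift122 and Tmem67 had no window. An X-box was searched as the arm GTTNCC followed after 0 to 3 bases by the arm GGNAAC, with at most 1 mismatch over the 10 fixed letters. This box reads the same on both strands. It was found in 12 of 41 windows (29.3%), beside 5.44% of all 32851 promoter windows, and without a mismatch in 6 (14.6%, beside 0.804%). The arm GTTGCC, on either strand, can lie within the X-box and was in 18 windows (43.9%, beside 12.5%). In 88 windows of other cilium genes the box was in 20 (22.7%), without a mismatch in 5 (5.68%), and the arm in 21 (23.9%). Below are the 6 exact matches and that of Bbs1, the gene with the highest fold change, each within 30 bases, 5′ to 3′ on the gene's strand, with the box in capitals.
Ahi1, chr10:20952560-20952589, plus strand: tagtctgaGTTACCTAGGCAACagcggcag
Bbs7, chr3:36613489-36613518, minus strand: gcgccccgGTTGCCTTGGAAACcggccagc
Ift57, chr16:49699226-49699255, plus strand: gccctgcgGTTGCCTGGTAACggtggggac
Mks1, chr11:87853183-87853212, plus strand: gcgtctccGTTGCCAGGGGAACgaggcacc
Tctn1, chr5:122264411-122264440, minus strand: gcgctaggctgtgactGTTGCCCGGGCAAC
Tctn3, chr19:40612350-40612379, minus strand: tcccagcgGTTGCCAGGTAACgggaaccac
Bbs1, chr19:4906605-4906634, minus strand: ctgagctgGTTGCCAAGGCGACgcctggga

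The Bbs1 box carries A12G, counted from 1 at the first base in capitals (box letter, position, promoter letter). The other members with a box of 1 mismatch were B9d1, Bbs4, Cc2d2a, Ift52 and Tctn2. Of the 12 genes with a box 3 rose with the block (Ahi1, Ift57 and Bbs1), and their median log2 fold change without the block was 0.31, with a range from −0.27 to 0.89. Of the 26 genes with a window in which no box was found 3 rose as well (Bbs2, Arl6 and Wdr35), with a median of 0.13 and a range from −0.47 to 0.64. Ranges of genes with and without a box overlapped, and the exact boxes of Tctn3 and Tctn1 stand beside log2 fold changes of 0.02 and 0.23 that did not pass the test. These matches describe letters in a window. They say nothing of whether a factor was bound there.

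The BBSome is a coat of membrane-bound subunits. Its 7 listed subunits had a median log2 fold change of 0.39 without the block, the highest of the 7 role groups. All 7 were higher in the knockdown in all 3 pairs, beside 31.7% of all genes. Bbs1 and Bbs2 rose (2 of 7) and 0 fell, beside 2.58% and 5.4% of all genes. For 6 of the 7, all higher, the unadjusted p with the block was under 0.05, beside 15.8% of all genes higher. Summed CPM of the 7 subunits were 113, 97.8 and 95.5 in controls and 153, 146 and 133 in knockdowns, with no overlap. Bbs1, a β-propeller subunit that contacts the membrane GTPase Arl6, was at 21.2, 20.03 and 18.9 CPM in controls 1 to 3 and at 38.6, 38.6 and 34.2 CPM in the knockdown libraries 1 to 3. Every knockdown library stood well clear of every control, and the spread within each group was small. The ratio of the means was 1.85, and the log2 fold change was 0.89 without the block (SE 0.12, edgeR adjusted p = 0.152) and 0.89 with it (SE 0.07, edgeR adjusted p = 0.0282). Without replicate 1 the blocked Bbs1 value was 0.90 (edgeR adjusted p = 0.0985), and with replicate 2 left out it was 0.84 (edgeR adjusted p = 0.0515). DESeq2 called Bbs1 without the block (0.87, DESeq2 adjusted p = 1.08e-09).

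Bbs2, another core subunit, was at 14.95, 10.8 and 11.03 CPM in the control libraries and at 20.3, 18.2 and 17.7 CPM in the knockdown libraries. Control 1 was the highest control, and it still lay below the lowest knockdown. The log2 fold change with the block was 0.62 (SE 0.10, edgeR adjusted p = 0.0416; without the block 0.61, edgeR adjusted p = 0.372). Leaving out any 1 pair took the blocked call away (0.54 to 0.72, edgeR adjusted p from 0.0825 to 0.120). Bbs9, also of the core, was at 7.59, 6.56 and 9.91 CPM in the control libraries and 12.6, 11.4 and 11.8 CPM in the knockdown libraries, a log2 fold change of 0.59 with the block (SE 0.15, edgeR adjusted p = 0.0720). These groups did not overlap either, but the gene did not pass the test. Bbs5, which has lipid-binding domains, had knockdown values from 9.71 to 10.1 CPM above controls from 6.96 to 8.78 CPM (0.37, edgeR adjusted p = 0.110 with the block). Bbs4 and Ttc8, subunits built of helical repeats, and Bbs7 overlapped between groups. Their log2 fold changes with the block were 0.39 (SE 0.08), 0.20 (SE 0.10) and 0.23 (SE 0.08), at edgeR adjusted p of 0.0540, 0.219 and 0.120. DESeq2 with the block called Bbs4 and Bbs9 higher.

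Genes for BBSome assembly and recruitment differed among themselves. Arl6, the small GTPase that brings the BBSome to the membrane, was at 14.4, 16.5 and 13.6 CPM in the control libraries and at 20.8, 28.1 and 20.4 CPM in the knockdown libraries. Replicate 2 was the highest library in both groups, and the groups did not overlap. Arl6 rose by a log2 fold change of 0.63 with the block (SE 0.09, edgeR adjusted p = 0.0362), and without it the value was 0.64 (SE 0.18, edgeR adjusted p = 0.347). The blocked Arl6 call was lost whichever pair was left out (0.54 to 0.68, edgeR adjusted p from 0.0560 to 0.119). Bbs10 and Bbs12, chaperonin-like proteins that help to assemble the BBSome, were the lowest of the 42 in CPM. Bbs10 averaged 4.38 ± 0.881 CPM in the control libraries and 5.03 ± 0.182 CPM in the knockdown libraries, and Bbs12 5.13 ± 0.101 and 4.67 ± 0.426 CPM (SD, n = 3). Neither passed the test, and Bbs12 was lower in the knockdown in all 3 pairs.

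**Figure D2:**
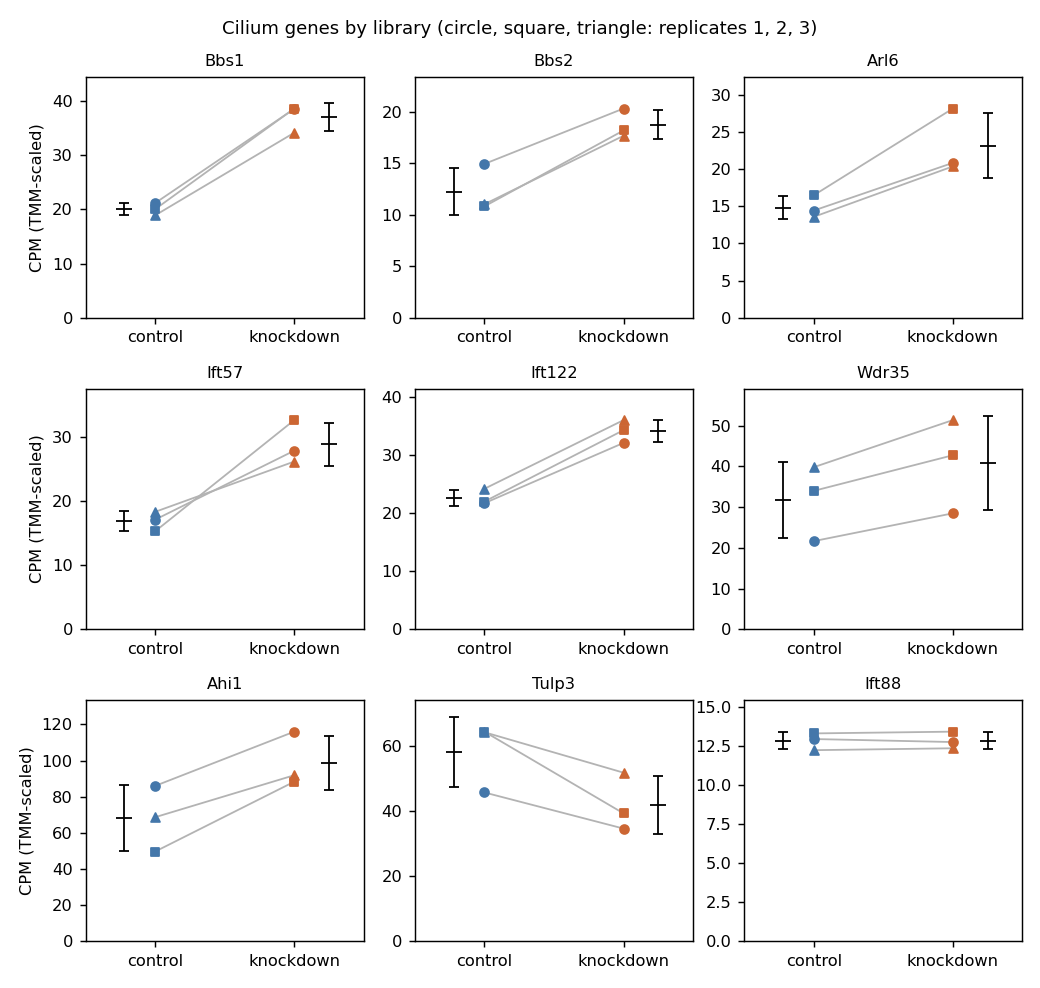
CPM (TMM-scaled, linear axes from 0) of the 7 genes that rose with the replicate block and of Tulp3 and Ift88 per library; lines connect libraries with the same replicate number, and black bars are mean and SD (n = 3). All 3 lines go up for each of the 7 genes, with Bbs1 from 18.9 to 21.2 CPM in the control libraries and from 34.2 to 38.6 CPM in the knockdown libraries; Tulp3 goes down in all 3 pairs and Ift88 is level.

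In IFT-B, the complex of outward trains, 1 of 11 genes rose, Ift57, and 0 fell, beside 2.58% and 5.4% of all genes. At an unadjusted p under 0.05 with the block 1 was higher and 2 were lower. These unadjusted shares are no higher than those of all genes given above (15.8% and 18.2%). The median log2 fold change was 0.14. Ift57, a partner of Ift20 at the periphery of the complex, was at 17.1, 15.3 and 18.4 CPM in the control libraries and 27.9, 32.7 and 26.2 CPM in the knockdown libraries. Replicate 2 was the lowest control and the highest knockdown, so the pair differences ranged from 0.51 to 1.09 on the log2 scale. The log2 fold change of Ift57 was 0.77 with the block (SE 0.13, edgeR adjusted p = 0.0434) and 0.77 without (SE 0.15, edgeR adjusted p = 0.216). Without replicate 1 the blocked Ift57 value was 0.80 (edgeR adjusted p = 0.124), and with replicate 2 left out it was 0.59 (edgeR adjusted p = 0.0708). Its partner Ift20, which also sits at the Golgi, was at 27.7, 25.1 and 24.8 CPM in the control libraries and 24.03, 21.8 and 20.4 CPM in the knockdown libraries. Ift20 was lower in every pair by a similar amount, without overlap, yet did not pass (−0.23, SE 0.07 with the block, edgeR adjusted p = 0.110; −0.23, edgeR adjusted p = 0.556 without). Ift52, a core scaffold, was at 27.9, 27.5 and 28.4 CPM in the control libraries and 23.9, 21.1 and 24.6 CPM in the knockdown libraries. All knockdowns lay below all controls, and Ift52 did not pass either (−0.27, SE 0.08 with the block, edgeR adjusted p = 0.0921; −0.27, edgeR adjusted p = 0.490 without).

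None of the remaining IFT-B genes passed the test. Ift88, a core subunit whose loss is a standard way to remove cilia, was at 12.9, 13.3 and 12.2 CPM in the control libraries and 12.7, 13.4 and 12.3 CPM in the knockdown libraries. The largest difference within a pair of Ift88 was smaller than the spread within either group, and the log2 fold change was 0.00 (SE 0.09 with the block). Ift46 and Traf3ip1 had knockdown values just above all controls, at 38.4 ± 0.735 beside 33.9 ± 1.64 CPM and at 20.3 ± 1.153 beside 18.1 ± 0.598 CPM (SD, n = 3). Neither passed the test (0.18 and 0.17 with the block, edgeR adjusted p = 0.162 and 0.237). For Ift74 and Ift81, the tubulin-binding pair, the GTPase Ift27, Ift80 and Ift172 the groups overlapped, with log2 fold changes between −0.06 and 0.15 in the fit with the block. Summed IFT-B levels were 261, 264 and 266 CPM in the control libraries and 286, 279 and 285 CPM in the knockdown libraries. Those sums did not overlap, but they lay much closer together than those of the BBSome.

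In IFT-A, which serves inward transport and the entry of membrane receptors, 2 of 5 genes rose and 0 fell, beside 2.58% and 5.4% of all genes. The median log2 fold change of the 5 was 0.17 without the block. Ift122, a core subunit, was at 21.8, 22.03 and 24.2 CPM in the control libraries and 32.2, 34.4 and 36.1 CPM in the knockdown libraries. The pairs agreed closely, with log2 differences of 0.56, 0.64 and 0.57, and the groups were far apart. Its log2 fold change was 0.59 with the block (SE 0.07, edgeR adjusted p = 0.0282) and 0.59 without (SE 0.11, edgeR adjusted p = 0.216). The blocked Ift122 call was lost without replicate 1 (0.61, edgeR adjusted p = 0.117) and with replicate 2 left out (0.55, edgeR adjusted p = 0.0593). Wdr35, a peripheral subunit, was at 21.6, 34.0 and 39.8 CPM in the control libraries and 28.5, 42.7 and 51.4 CPM in the knockdown libraries. Here the replicates differed more than the groups, which overlapped, while each pair moved up by nearly the same amount (0.40, 0.33 and 0.37 on the log2 scale). Wdr35 was therefore called with the block (0.36, SE 0.07, edgeR adjusted p = 0.0455) and far from a call without it (0.36, SE 0.30, edgeR adjusted p = 0.688). Its blocked call was lost whichever pair was left out (edgeR adjusted p from 0.0936 to 0.184) and with library totals alone or no filter. Wdr19 and Ift140, both of the core, and Ift43 had log2 fold changes of 0.16, 0.09 and 0.00 with the block and did not pass. Dync2h1, the heavy chain of dynein-2, was at 33.3, 29.6 and 41.7 CPM in the control libraries and 35.2, 38.2 and 39.1 CPM in the knockdown libraries. Control 3 was above all knockdowns, and Dync2h1 did not pass (0.12, SE 0.11 with the block, edgeR adjusted p = 0.477; 0.11, edgeR adjusted p = 0.828 without).

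The 4 genes of ciliary membrane traffic pointed in opposite directions, and 0 of 4 passed in edgeR with the block. Unadjusted p in that fit was under 0.05 for 1 higher and 1 lower, beside 15.8% and 18.2% of all genes. DESeq2 with the block called 2 of the 4, Arl3 higher and Tulp3 lower, beside 8.1% and 15.6% of all genes. Tulp3, the adaptor that links receptors to IFT-A, had the lowest fold change of the 42. It was at 45.6, 64.3 and 64.1 CPM in the control libraries and 34.5, 39.2 and 51.7 CPM in the knockdown libraries. Each pair was lower, although knockdown 3 lay above control 1. Its log2 fold change was −0.48 with the block (SE 0.10, edgeR adjusted p = 0.0565) and −0.47 without (SE 0.21, edgeR adjusted p = 0.497), and DESeq2 with the block called it lower (−0.49, DESeq2 adjusted p = 0.00242). Arl3, the GTPase that releases lipid-modified cargo inside the cilium, was at 43.9, 35.9 and 44.6 CPM in the control libraries and 62.4, 50.2 and 49.7 CPM in the knockdown libraries. No value of Arl3 overlapped between the groups, and it did not pass in edgeR with TMM factors (0.38, SE 0.10 with the block, edgeR adjusted p = 0.0728; 0.38, edgeR adjusted p = 0.458 without). Arl3 was called higher by DESeq2 with the block (0.36, DESeq2 adjusted p = 0.0349) and by edgeR with the block when scaled to library totals (0.45, edgeR adjusted p = 0.0465). Arl13b, the exchange factor for Arl3, and Inpp5e, a lipid phosphatase that Arl3 releases, had log2 fold changes of −0.12 (SE 0.09) and −0.05 (SE 0.08) with the block.

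Of 11 transition zone genes 1 rose, Ahi1, and 0 fell, beside 2.58% and 5.4% of all genes. At an unadjusted p under 0.05 with the block 4 were higher and 0 lower, beside 15.8% and 18.2% of all genes. The median log2 fold change was 0.23, and 9 of 11 were above 0, beside 8263 of all 15731 genes tested. Ahi1, which encodes jouberin and had the highest CPM of the 42 genes, was at 85.9, 49.5 and 68.6 CPM in the control libraries and 116, 88.3 and 91.8 CPM in the knockdown libraries. Replicate 1 was the highest library in each group, and knockdown 2 exceeded control 1 by little. Its log2 fold change was 0.56 with the block (SE 0.11, edgeR adjusted p = 0.0486) and 0.54 without (SE 0.22, edgeR adjusted p = 0.476). The Ahi1 call was lost with RLE factors (0.54, edgeR adjusted p = 0.0512) and whichever pair was left out (0.41 to 0.63, edgeR adjusted p from 0.0632 to 0.122). Tctn2, a tectonic, was at 7.66, 8.83 and 9.81 CPM in the control libraries and 11.1, 11.8 and 14.2 CPM in the knockdown libraries, without overlap. It did not pass in edgeR with TMM factors (0.50, SE 0.10 with the block, edgeR adjusted p = 0.0530; 0.50, edgeR adjusted p = 0.448 without). Tctn2 was called in 4 of 10 other fits with the block: DESeq2 (adjusted p = 0.0111), limma-voom (adjusted p = 0.0497), edgeR with upper-quartile factors (adjusted p = 0.0493) and edgeR with the 5 CPM filter on mean level (adjusted p = 0.0473). The other tectonics, Tctn1 and Tctn3, had log2 fold changes of 0.22 and 0.00 with the block.

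B9d1 and Mks1, B9-domain proteins of the same complex, averaged 5.88 ± 1.14 and 6.62 ± 2.11 CPM in the control libraries and 8.11 ± 1.58 and 7.69 ± 1.92 CPM in the knockdown libraries (SD, n = 3). Their groups overlapped (0.46 and 0.23 with the block, edgeR adjusted p = 0.0841 and 0.248). Tmem67, a membrane protein of the gate, had knockdown values from 10.2 to 12.1 CPM above controls from 8.78 to 9.26 CPM. It did not pass (0.26 with the block, edgeR adjusted p = 0.166, and 0.27 without, edgeR adjusted p = 0.585). Iqcb1, whose groups overlapped, had a log2 fold change of 0.28 with the block (edgeR adjusted p = 0.108). Cep290, which bridges the membrane and the microtubules, Cc2d2a and Rpgrip1l had log2 fold changes of −0.05, −0.04 and 0.05 with standard errors of 0.08 to 0.10. Summed over the 11 transition zone genes, levels were 209, 160 and 187 CPM in the control libraries and 255, 210 and 228 CPM in the knockdown libraries. Knockdown 2 was only just above control 1.

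**Figure D3:**
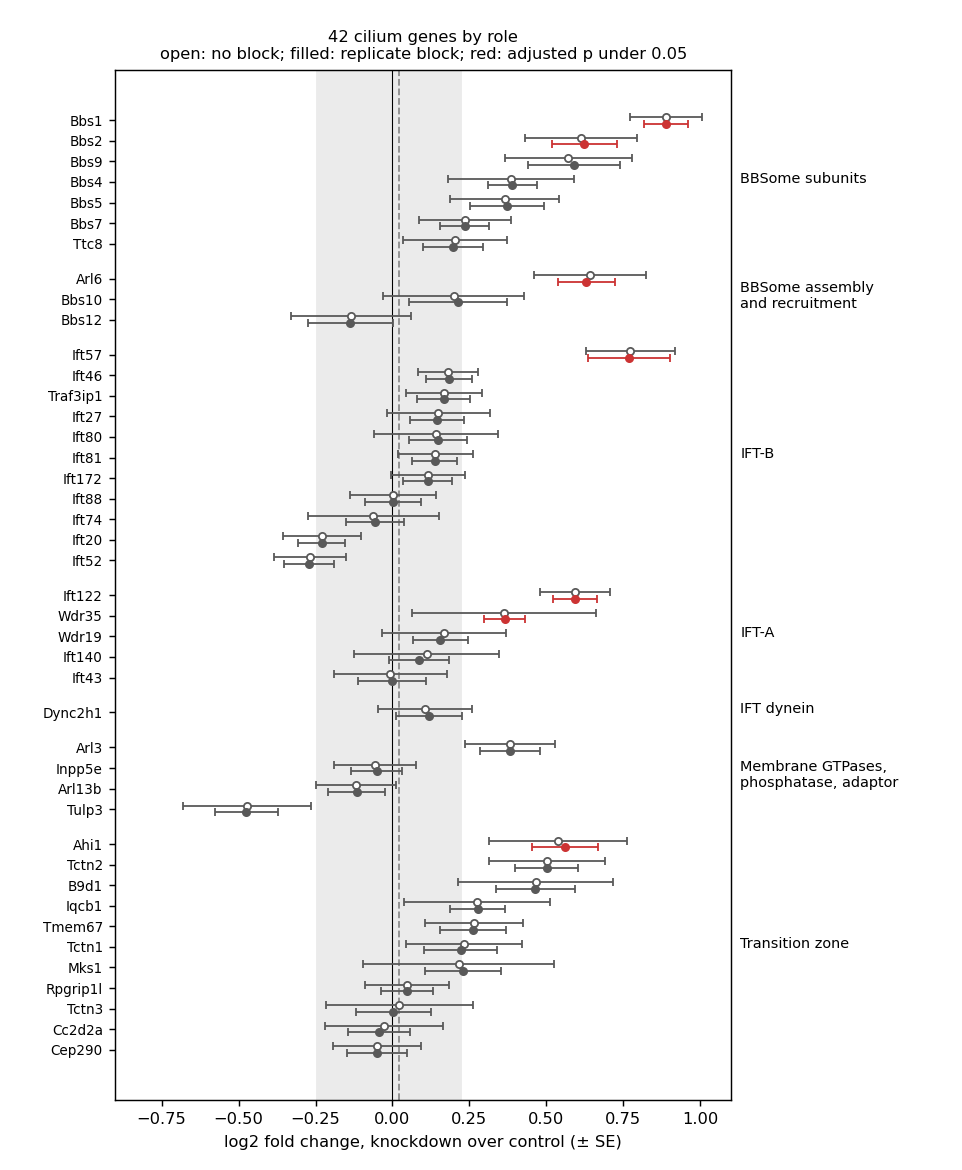
Knockdown over control log2 fold change (± SE) for the 42 genes by role, without (open points) and with (filled points) the replicate block, with adjusted p under 0.05 in red. The dashed line is the median of all genes tested (0.02) and the grey band their middle range from −0.24 to 0.22; the 7 red points lie between 0.36 (Wdr35) and 0.89 (Bbs1).

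Levels can be compared between genes per kilobase of exon (union of GENCODE M21 exons, which need not be the models the authors counted). In controls, Ift20 (17.0 ± 1.05) and Arl3 (16.7 ± 1.95) had the highest CPM per kilobase, followed by Ift52 (9.97 ± 0.168) and Ahi1 (9.66 ± 2.59; SD, n = 3). Within each of these pairs of neighbours the levels differed by less than their spread. Cep290 (1.004 ± 0.0298) and Tctn2 (1.05 ± 0.130) were the lowest, followed by Rpgrip1l (1.12 ± 0.0821). Bbs1 stood at 2.61 ± 0.147 and Ift122 at 2.20 ± 0.132 CPM per kilobase in controls (SD, n = 3). In that annotation exons of 9 of the 42 genes overlap a gene on the opposite strand, among them Arl6 and Ift57, and those of Bbs12 overlap one on the same strand. No source used here gives the strand setting used to count reads. The overlap covers 55 of 2098 exon bases of Arl6 (2.62%) and 225 of 2862 of Ift57 (7.86%). The share was largest for Tctn1 (2113 of 8295, 25.5%, summed over partners) and Inpp5e (874 of 4301, 20.3%). Only reads within an overlap could be mixed with those of the partner. No such overlap was found for Bbs1, Bbs2, Ift122, Wdr35 or Ahi1.

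Other genes of the same machinery mostly had fold changes above 0 as well, but few were called. Over the 77 other cilium genes tested, in this and the next 2 paragraphs, edgeR with the block called 1 higher (1.30%) and 3 lower (3.90%). Those shares were 2.58% and 5.4% over all genes. Of 19 tested BBSome, IFT and motor genes outside the list all 19 had a log2 fold change above 0 (median 0.27 without the block), beside 8263 of all 15731 genes tested. In edgeR with the block 1 of the 19 rose and 0 fell, with 9 higher and 0 lower at an unadjusted p under 0.05 (all genes 15.8% and 18.2%). DESeq2 with the block called 5 of the 19 higher and 0 lower, beside 8.1% and 15.6% of all genes. The same shares apply to the other DESeq2 counts of this paragraph. The gene that rose in edgeR was Kif3a, a kinesin-2 motor of outward trains. It was at 128, 113 and 96.7 CPM in the control libraries and 164, 167 and 131 CPM in the knockdown libraries, with no overlap (0.46, SE 0.07 with the block, edgeR adjusted p = 0.0397; 0.45, edgeR adjusted p = 0.407 without). The Kif3a call was lost whichever pair was left out (edgeR adjusted p from 0.0737 to 0.120). Of 15 other transition zone genes 0 passed with edgeR and the block (3 higher and 1 lower unadjusted), and 3 were called higher by DESeq2 with the block; their median was 0.21 without the block. Rpgr, a regulator of the gate, had the smallest p without the block among them (0.57 with the block, SE 0.13, edgeR adjusted p = 0.0635). Of 19 basal body genes 0 passed with edgeR and the block (5 higher and 0 lower unadjusted) and 3 were called higher by DESeq2 with the block, Cep97, a cap protein of the centriole, being nearest without the block (0.57 with the block, edgeR adjusted p = 0.0516).

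Genes of signalling at the cilium had mostly lower levels in the knockdown. Of 17 tested 0 rose and 3 fell in edgeR with the block, beside 2.58% and 5.4% of all genes. Their median log2 fold change was −0.44 without the block, and 12 of 17 were below 0, beside 7468 of all 15731 genes tested. DESeq2 with the block called 1 higher and 7 lower, beside 8.1% and 15.6% of all genes. Unadjusted p in edgeR with the block was under 0.05 for 2 higher and 8 lower, beside 15.8% and 18.2% of all genes. Sstr3, a somatostatin receptor of neuronal cilia, was at 26.6, 56.3 and 17.6 CPM in the control libraries and 4.10, 24.3 and 6.64 CPM in the knockdown libraries. Its groups overlapped through replicate 2, which was high in both (−1.75, SE 0.32 with the block, edgeR adjusted p = 0.0455; −1.52, edgeR adjusted p = 0.531 without). Gli3, a transcription factor of the hedgehog pathway, was at 16.7, 40.1 and 46.4 CPM in the control libraries and 8.25, 18.8 and 31.7 CPM in the knockdown libraries (−0.89, SE 0.13 with the block, edgeR adjusted p = 0.0362; −0.81, edgeR adjusted p = 0.632 without). Rp2h, the gene for the GTPase-activating protein of Arl3, was at 21.6, 23.4 and 24.6 CPM in the control libraries and 15.4, 16.9 and 19.0 CPM in the knockdown libraries, without overlap. It fell by 0.44 on the log2 scale with the block (SE 0.08, edgeR adjusted p = 0.0455; −0.44, edgeR adjusted p = 0.387 without). Without replicate 1 or replicate 2 none of Sstr3, Gli3 and Rp2h was called with the block, and the Rp2h call was also lost when scaled to library totals (−0.37, edgeR adjusted p = 0.101). Gli3 kept its call without replicate 3 (edgeR adjusted p = 0.0219), and Sstr3 (0.0501) and Rp2h (0.0792) did not.

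Rfx3 and Foxj1 encode activators of ciliary transcription. Of a list of 7 genes, Foxj1 and members of the RFX family, 0 passed with edgeR or DESeq2 and the block. At an unadjusted p under 0.05 with edgeR and the block 1 was higher and 0 lower, beside 15.8% and 18.2% of all genes. Rfx3 was at 42.3, 29.4 and 37.8 CPM in the control libraries and 46.5, 58.4 and 42.6 CPM in the knockdown libraries. The groups did not overlap, and most of the difference was in pair 2 (0.43, SE 0.19 with the block, edgeR adjusted p = 0.188).

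Cells other than granule neurons could contribute cilium transcripts, and in bulk libraries fewer cells of a type and less RNA per cell cannot be told apart. Markers of multiciliated and ependymal cells were low: 18 of 22 were in the table, their summed level ranged from 47.2 to 88.6 CPM in the control libraries and from 56.0 to 82.1 CPM in the knockdown libraries, and 0 of 18 passed with edgeR or DESeq2 and the block (1 higher and 0 lower unadjusted with edgeR, Ccdc40 being nearest at 0.48, edgeR adjusted p = 0.107). Of the 18, 14 had a log2 fold change above 0 without the block and 4 below, with a median of 0.14. All 3 pairs were higher for 6 (33.3%) and lower for 0, beside 31.7% and 28.5% of all genes. Foxj1 was at 23.97, 13.2 and 14.3 CPM in the control libraries and 17.9, 14.7 and 13.5 CPM in the knockdown libraries. Pericyte and fibroblast markers, of cells that can also carry a cilium, were mostly lower in the knockdown. Their summed level ranged from 13692 to 27204 CPM in the control libraries and from 4650 to 12446 CPM in the knockdown libraries. In edgeR with the block 8 of 14 fell (57.1%, beside 5.4% of all genes) and 0 rose (12 and 0 with DESeq2 and the block). Among the 8 were Pdgfrb, Fn1, Col3a1 and Col6a1 (log2 fold changes from −1.68 to −1.34 with the block). Of the 14, 13 were below 0 without the block. Rgs5 was above 0 (0.68, and 0.42 with the block, edgeR adjusted p = 0.348). Cell cycle markers ranged from 226 to 713 and from 113 to 602 CPM summed, and all 15 had a log2 fold change below 0. Of the 15, 3 fell in edgeR with the block (Rrm2, Mki67 and Mcm5), 10 were lower at an unadjusted p under 0.05 in that fit, and DESeq2 with the block called 12 lower. Astrocyte markers ranged from 1356 to 3371 and from 886 to 3557 CPM summed, with 1 of 10 lower in edgeR with the block (Gja1) and 3 with DESeq2 and the block. Granule neuron markers summed to 4939 to 7195 CPM in the control libraries and 5194 to 7565 CPM in the knockdown libraries, with 2 of 14 higher (Tubb3 and Barhl1) and 1 lower (Etv1) in edgeR with the block, and 5 higher and 5 lower with DESeq2 and the block. Over all genes, edgeR with the block called 2.58% higher and 5.4% lower, and DESeq2 with the block 8.1% and 15.6%. Unadjusted p in the blocked edgeR fit was under 0.05 for 15.8% higher and 18.2% lower. The part of these marker shifts in the levels of the cilium genes was not tested.

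**Figure D4:**
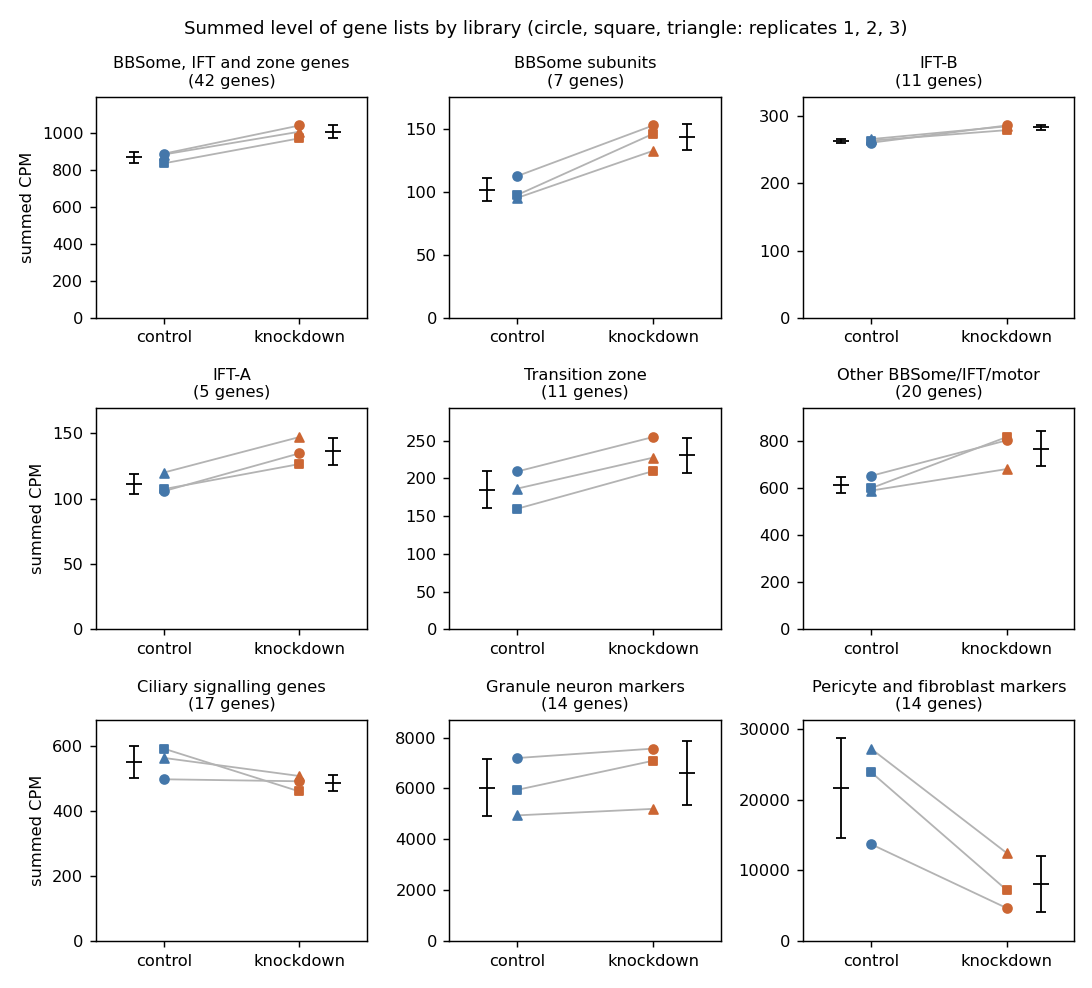
Summed CPM (linear axes from 0) of gene lists per library; lines connect libraries with the same replicate number, and black bars are mean and SD (n = 3). The sums of the 42 genes and of the BBSome subunits are higher in each knockdown than in any control, those of pericyte and fibroblast markers are lower, and those of granule neuron markers overlap.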

How the data were processed

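Stranded mRNA libraries were read as 50 bp single ends, per the labels' protocols. The authors deposited raw counts per gene in 1 table, and Trimmomatic, TopHat2, HTSeq, edgeR, DESeq2 and build mm9 are named in the submitters' processing notes. No source used here gives versions, the annotation or the strand setting, or says which cultures received BDNF, as certain ones did. Tallies of reads assigned to no gene (28.6% to 34.8% of all counts) were left out of library sizes and tests.

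All genes kept by filterByExpr (minimum count 10, minimum total 15) were fitted together with edgeR 4.0.16 in R 4.3.3, with TMM factors and the quasi-likelihood F test, and p was adjusted by Benjamini-Hochberg over the 15731 genes tested at 0.05. SE was derived from F, as |log2 fold change| over its root. An exact permutation test of 3 against 3 libraries cannot give p below 0.1. The primary fit had no block. Libraries of the same replicate number correlated in their deviations from group means at 0.772, 0.709 and 0.701 across genes, those of different numbers at −0.532 to −0.135. Deviations from a mean of 3 libraries sum to 0, which pushes the latter below 0, so they are no separate evidence of pairing. The pairing by replicate number comes from the data. The blocked value is given for most members, and for some it is given alone. No member passed in edgeR without the block.

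The members and lists were chosen with earlier results of these data known. Named in full were members called in either fit, those with the 3 highest and 3 lowest fold changes and the smallest p in each role group; from other lists, called genes (up to 4) or the smallest p. Further genes were named after their values were seen. Tested on simulated data (15579 genes, knockdown against control), edgeR with no block found 0 of 67 genes altered 1.5-fold, 0 of 67 altered 2-fold and 32 of 66 altered 4-fold, with 0 false calls. Blocked, it found 19, 53 and 61, with 23 false calls. Those false calls were a larger share of the blocked calls than the adjusted p threshold allows. The cilium genes called with the block were called at the same threshold. The simulation cannot decide whether the real libraries are paired, because the relation between its replicates was set when its counts were made. Tried as alternatives were upper-quartile and RLE factors, no filter, library totals alone, a mean of at least 5 CPM, DESeq2 1.42.0, limma-voom (limma 3.58.1), the block, and leaving out libraries.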

Additional observations from a re-analysis of the deposited data

How the results depend on the processing

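The median log2 fold change of the 42 genes was 0.17 without the block and stayed above that of all genes under every alternative run. It moved by more than the spread between libraries only with library totals alone (0.25 without and 0.24 with the block) and without knockdown replicate 1 (0.13), and ranged from 0.13 to 0.19 when libraries or pairs were left out. Without the block edgeR called 0 of the 42 and 1 gene in all; library totals alone called 0 genes in all, DESeq2 called 3 of the 42 and 568 in all, and leaving out any 1 library called 0 and 0. The replicate block called 7 of the 42 and 1256 in all. With the block, RLE factors called 6 and 1342, upper-quartile factors 8 and 1350, library totals alone 7 and 1276, no filter 6 and 1598, a mean of at least 5 CPM 9 of 40 and 1439, DESeq2 12 and 3440, and limma-voom 8 and 1394. Leaving out 1 pair with the block gave from 0 to 3 of the 42 and from 0 to 1272 genes in all (53 without replicate 2). With library totals alone the block called 723 genes higher and 553 lower, against 406 and 850 with TMM. Of 13 named genes in 24 alternatives 1 value changed sign, that of Dync2h1 with the block and without replicate 2 (−0.022, edgeR adjusted p = 0.901). Why these values moved was not tested.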
